A study of Mus musculus with 4 samples.

Results

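The IL-6 family was read here as 9 genes chosen by name from a table of 34745 genes: the cytokine genes Lif, Osm, Il6 and Ebi3, and the receptor genes Il6st, Il6ra, Il27ra, Lifr and Osmr. All 9 were found in the table, each on 1 identifier. The RNA came from CD4+ T cells of wild-type C57BL/6 mouse spleen, as 1 library per group: Th17 and Treg cells kept for 3 days under the respective differentiation conditions, Th0 cells stimulated for 3 days through CD3 and CD28, and naive cells taken straight from the spleen. Which cytokines made up either differentiation medium is not stated by the labels, nor is whether animals were pooled. With 1 library per group no difference has a replicate check, so no test between conditions was made, and every interval is a 95% interval that covers counting error only.

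Cytokines of this family signal through a shared receptor chain, gp130, which Il6st encodes. Each cytokine adds a chain of its own: the IL-6 receptor alpha chain (Il6ra) for IL-6, the LIF receptor (Lifr) for LIF, the oncostatin M receptor (Osmr) for oncostatin M, and IL-27 receptor alpha (Il27ra) for IL-27, whose subunits come from Il27 and Ebi3. The bound receptors activate JAK kinases, which phosphorylate STAT3 and related factors. In CD4+ T cells IL-6 acts with TGF-beta to start the Th17 programme and counters induction of Foxp3, and IL-27 restrains Th17 development.

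Levels between libraries are given as CPM, the count per 1000000 counts of the library total after scaling with TMM normalization factors, and levels between genes as the authors' FPKM, which divides by gene length. The total count was between 10256627 and 12414372 per library, so that 3 counts, the limit set here for a count of 0, stood for 0.230 to 0.343 CPM. A gene entered a comparison with at least 10 counts in 1 of the 2 libraries. It was called higher or lower when its CPM, after adding 1, differed at least 2-fold and the counting interval of the ratio excluded equality. The lineage genes followed the labels of the cultures: Il17a had 90.9 CPM in Th17, 14.7 in Treg, a count of 0 in Th0 and 0.244 in naive, while Foxp3 had 11.3 CPM in Th17, 51.5 in Treg and 1.37 in Th0. The naive library stood apart, with 129 CPM of Foxp3 and with transcripts of other blood cells. Summed macrophage markers came to 17.0 CPM in Th17, 30.1 in Treg, 9.71 in Th0 and 3755 in naive, and neutrophil markers to 10.7, 5.41, 1.60 and 1477 CPM in the same order. B cell markers summed to 78.6 CPM in Th17, 24.1 in Treg, 108 in Th0 and 941 in naive, and dendritic cell markers to 17.9, 27.9, 9.02 and 339.7 CPM. T cell markers summed to 2929 CPM in Th17, 3186 in Treg, 3583 in Th0 and 2710 in naive, with 7 of 7 detected in each.

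The cytokine gene Lif was the member furthest apart between the cultures. Its product keeps mouse embryonic stem cells undifferentiated and has been reported to counter Th17 development. Lif (chromosome 11, 4257557 to 4272514, plus strand, GRCm38) had 9223 counts in Th17, 5641 in Treg, 152 in Th0 and 112 in naive, that is 707, 509, 17.4 and 9.12 CPM. Both differentiation cultures lay above stimulation alone and above the naive cells. Lif was 40.7-fold higher in Th17 than in Th0 (interval 34.7 to 48.1) and 29.3-fold higher in Treg than in Th0 (24.9 to 34.7), with 1 Th0 library behind both ratios. On the log2 scale with 1 CPM added these were 5.27 and 4.79, which placed Lif 14th from the top of 13324 genes for Th17 over Th0 and 10th of 13138 for Treg over Th0. Between Th17 and Treg it was 1.39-fold higher in Th17 (1.34 to 1.44), short of the 2-fold rule. The Th0 library was 1.90-fold above naive (1.48 to 2.45), also short of it. Against naive, Lif was 77.5-fold higher in Th17 (64.3 to 94.2) and 55.8-fold higher in Treg (46.3 to 67.9), 12th from the top of 14523 genes and 7th of 14350. Of the summed FPKM of the 9 members, Lif made up 57.5% in Th17, 52.3% in Treg, 6.12% in Th0 and 1.35% in naive. These shares depend on the gene lengths behind the FPKM.

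Osm encodes oncostatin M, an inflammatory cytokine made by activated leukocytes. It lies next to Lif on the same strand of chromosome 11 (4236420 to 4241026), with 16530 bases between the genes and no annotated gene in the gap. Osm had 1349 counts in Th17, 959 in Treg, 156 in Th0 and 360 in naive, or 103, 86.5, 17.8 and 29.3 CPM. The order of the cultures was that of Lif, but the naive level lay above Th0 and not below it. Osm was 5.80-fold higher in Th17 than in Th0 (4.91 to 6.89) and 4.85-fold higher in Treg than in Th0 (4.09 to 5.79). Th17 was 1.20-fold above Treg (1.10 to 1.30), which did not reach the 2-fold rule. Against naive, Th17 was 3.53-fold and Treg 2.95-fold higher. Per length the neighbours changed places between libraries: Lif stood at 3.93 times the FPKM of Osm in Th17 and 3.38 times in Treg, but at 0.560 times in Th0 and 0.179 times in naive.

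Il6 itself was close to undetected. The gene (chromosome 5, 30013114 to 30019981) had 6 counts in Th17, 11 in Treg, 0 in Th0 and 7 in naive. These were 0.460 CPM in Th17, 0.992 in Treg and 0.570 in naive, while the interval of the 0 in Th0 reached 0.421 CPM. The counting intervals of Th17, Treg and naive overlapped, so no order of these libraries can be read. Treg was at least 2.89-fold above Th0 when 3 counts were set for the 0, a value that leaves out the counting error of the 11 counts. With that error the interval of the log2 ratio began at 0.99. The gene missed the size rule at a log2 ratio of 0.99 after adding 1 CPM, and was called under library totals (1.05) or with 0.25 CPM added (2.31). In each culture Il6 transcript was at the edge of detection at this depth.

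Ebi3, the subunit that IL-27 shares with IL-35, was present at a moderate and even level. It lies on chromosome 17 (55952623 to 55957021) and had 200 counts in Th17, 175 in Treg, 105 in Th0 and 174 in naive, or 15.3, 15.8, 11.99 and 14.2 CPM. From highest to lowest the libraries ran Treg, Th17, naive and Th0, and neighbours in that order did not differ beyond counting error. Treg was 1.32-fold above Th0 with an interval of 1.03 to 1.69, and the gene met the size rule in none of the 6 comparisons. An antisense gene, Gm16712, overlaps it with 19 counts in Th17, 6 in Treg, 4 in Th0 and 5 in naive, and without known strandedness their reads cannot be told apart. Its partner genes were low: Il27 had 1, 4, 5 and 23 counts in Th17, Treg, Th0 and naive, and Il12a, which encodes the IL-12 p35 subunit that also pairs with EBI3, had 10, 7, 24 and 19.

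**Figure D1:**
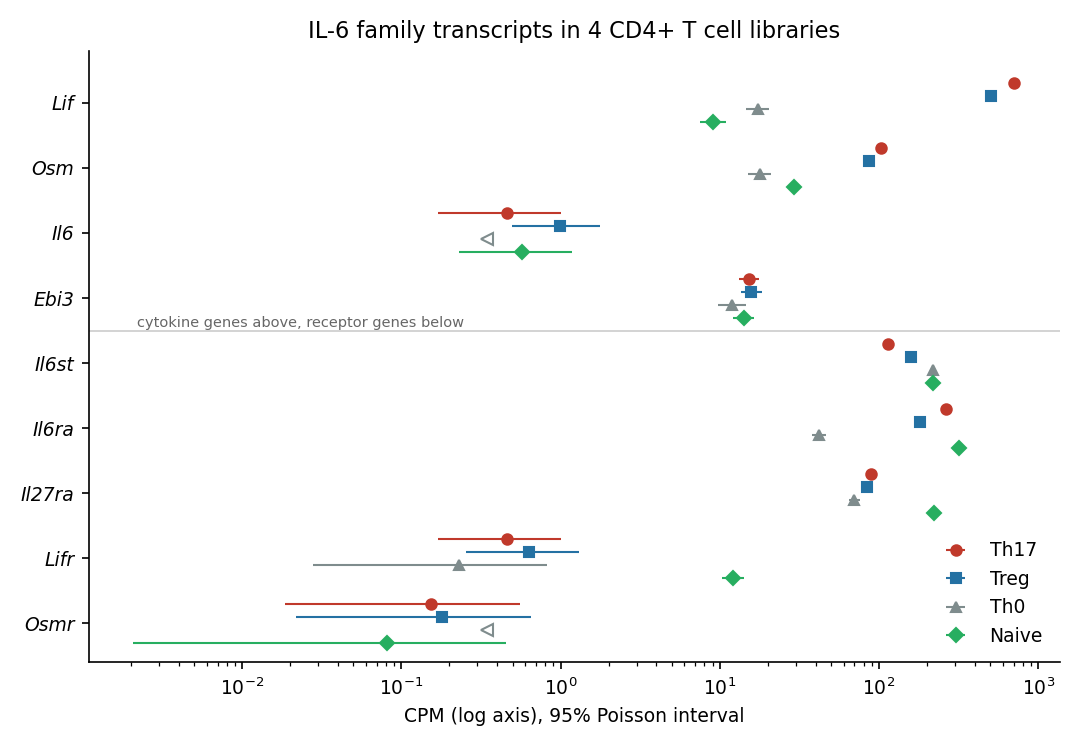
CPM of the 9 members on a log axis, with 95% Poisson intervals, in the Th17 (circle), Treg (square), Th0 (triangle) and naive (diamond) libraries; open arrows mark a count of 0, drawn at the 0.343 CPM that 3 counts would give. Lif and Osm are highest in Th17 and Treg, Il6ra is lowest in Th0, and Il6 and Osmr lie at or below 0.992 CPM in every library.

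The promoters of the gene that differed most and of the gene that was nearly silent are shown, as annotated by RefSeq on GRCm38.p6, each from 250 bases before to 50 bases after the start, 5′ to 3′ on the plus strand. The Lif window is chr11:4257318-4257617 and the Il6 window chr5:30012864-30013163. Capitals mark the motif TGANTCA, which takes in the AP-1 sites TGACTCA and TGAGTCA but allows any base in the middle.
Lif: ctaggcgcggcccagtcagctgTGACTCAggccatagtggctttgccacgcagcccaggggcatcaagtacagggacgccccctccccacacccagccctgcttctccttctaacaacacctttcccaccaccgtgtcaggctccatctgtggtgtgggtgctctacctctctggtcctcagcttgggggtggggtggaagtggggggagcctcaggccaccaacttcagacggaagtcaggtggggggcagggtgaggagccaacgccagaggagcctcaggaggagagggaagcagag
Il6: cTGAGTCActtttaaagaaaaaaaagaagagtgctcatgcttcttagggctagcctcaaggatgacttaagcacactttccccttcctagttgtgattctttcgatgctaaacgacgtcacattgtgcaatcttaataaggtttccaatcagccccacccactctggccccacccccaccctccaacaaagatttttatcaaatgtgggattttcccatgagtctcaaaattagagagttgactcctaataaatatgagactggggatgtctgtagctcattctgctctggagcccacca
The motif begins 228 bases before the start in Lif and 249 bases before it in Il6. Of the members, 7 had a promoter entry, with 8 windows in all since Lifr has 2; none was used for Osm and Il27ra. TGANTCA, which reads the same on both strands, was in 3 of the 8 windows (Lif, Il6 and Osmr) and in 7.81% of the 32851 windows of all genes. The match in Osmr reads TGATTCA, which is neither of the AP-1 sites named above. The STAT motif TTCNNNGAA, also the same on both strands, was in 0 of the 8 and in 8.30% of all. GGAAAA or its reverse TTTTCC, the letters searched here for NFAT, was in the windows of Il6 and Osmr and in 23.4% of all. The shorter TTTCC, which was not searched for, can be read in the Lif window above. The lack of the longer match in Lif therefore does not show that an NFAT site is absent. The 3 motifs were searched separately and are matches of letters in this window only. Lif and Il6 both hold a match to TGANTCA, and their FPKM in Th17 were 167 and 0.118. Whether the match bears on either level was not tested.

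Among the receptors, Il6ra was the one that differed most between the cultures. The gene (chromosome 3, 89864059 to 89913196, minus strand) had 3427 counts in Th17, 2011 in Treg, 368 in Th0 and 3919 in naive, or 263, 181, 42.0 and 319 CPM. Th0 was the low library, and Th17 and Treg lay between it and naive. Il6ra was 6.25-fold higher in Th17 than in Th0 (5.61 to 6.97), 4.31-fold higher in Treg than in Th0 (3.86 to 4.83) and 7.59-fold lower in Th0 than in naive (6.82 to 8.47). Th17 was 1.45-fold above Treg (1.37 to 1.53), and against naive Th17 was 1.21-fold and Treg 1.76-fold lower. None of these last 3 ratios met the 2-fold rule, though each interval excluded equality. An antisense gene, Gm42809, overlaps Il6ra with 74 counts in Th17, 40 in Treg, 0 in Th0 and 6 in naive, and without known strandedness the reads of the pair cannot be told apart.

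Il6st, the gp130 gene, had its lowest level in Th17. On chromosome 13 (112464070 to 112510086), it had 1485 counts in Th17, 1750 in Treg, 1916 in Th0 and 2686 in naive, or 114, 158, 219 and 219 CPM. Treg lay between Th17 and Th0, and Th0 and naive did not differ beyond counting error (ratio 1.001, interval 0.944 to 1.06). The level was 1.92-fold lower in Th17 than in Th0 (1.80 to 2.06), while Treg was below Th0 by 1.39-fold (1.30 to 1.48). Neither reached 2-fold after adding 1 CPM, at log2 ratios of -0.94 and -0.47. With median-ratio size factors Th17 over Th0 came to -1.005 and was called lower. Th17 was also 1.39-fold below Treg (1.29 to 1.49).

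Set side by side within a library, the ligand-binding and the signalling chain did not keep 1 order. In Th17 the authors' FPKM of Il6ra was 25.2 against 6.82 for Il6st, in Treg 17.9 against 9.73, in Th0 3.27 against 10.6 and in naive 30.1 against 12.9. The FPKM of Il6ra was 3.69 times that of Il6st in Th17 (3.47 to 3.93), 1.84 times in Treg (1.72 to 1.96), 0.307 times in Th0 (0.274 to 0.344) and 2.34 times in naive (2.22 to 2.45). Th0 was the 1 library in which the gp130 transcript was the more abundant. These ratios depend on the lengths behind the FPKM, 10957 bases for Il6ra and 17535 for Il6st. With the longest GENCODE transcripts, of 8639 and 8678 bases, they were 2.32, 1.15, 0.193 and 1.47 in Th17, Treg, Th0 and naive, so the side of 1 was kept in each.

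Il27ra, the IL-27 receptor alpha chain, separated the naive library from the cultures. On chromosome 8 (84030287 to 84042575), it had 1160 counts in Th17, 926 in Treg, 613 in Th0 and 2727 in naive, or 88.9, 83.5, 70.0 and 222 CPM. The 3 cultures lay close together: Th17 was 1.27-fold and Treg 1.19-fold above Th0, and Th17 and Treg did not differ beyond counting error (ratio 1.06, interval 0.975 to 1.16). It was called lower than naive in all 3, by 2.50-fold in Th17 (2.33 to 2.68), 2.66-fold in Treg (2.47 to 2.87) and 3.17-fold in Th0 (2.90 to 3.47). Its FPKM was the highest of the 5 receptor genes in every library, at 35.2 in Th17, 34.0 in Treg, 22.5 in Th0 and 86.2 in naive. This order depends on gene length in Th0 and Th17. In Th0, Il27ra stood at 2.11 times Il6st by FPKM and at 0.947 times with the longest GENCODE transcripts. In Th17 those transcripts put Il27ra and Il6ra level, each at 2.31 or 2.32 times Il6st.

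**Figure D2:**
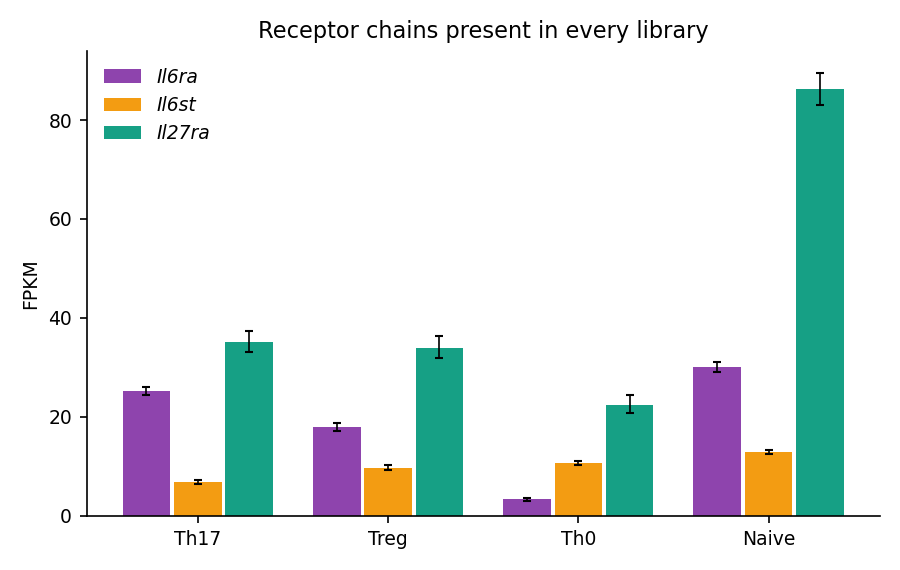
The authors' FPKM of Il6ra, Il6st and Il27ra in the Th17, Treg, Th0 and naive libraries, 1 library each, with 95% Poisson intervals as error bars. Il6ra exceeds Il6st in Th17, Treg and naive, while in Th0 Il6ra stands at 3.27 and Il6st at 10.6 FPKM.

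The chains that LIF and oncostatin M use beside gp130, Lifr and Osmr, had few or no counts in the cultures. Lifr (chromosome 15, 7129559 to 7197489) had 6 counts in Th17, 7 in Treg, 2 in Th0 and 149 in naive, or 0.460, 0.631, 0.228 and 12.1 CPM. The cultures did not differ beyond counting error, and Lifr was called lower than naive in each, by 26.4-fold in Th17 (11.8 to 73.0), 19.2-fold in Treg (9.10 to 48.6) and 53.1-fold in Th0 (14.4 to 442). On the FPKM scale with 1 FPKM added, Th17 and Treg over naive missed the rule at log2 ratios of -0.98 and -0.95. Osmr (chromosome 15, 6813577 to 6874969) had 2 counts in Th17, 2 in Treg, 0 in Th0 and 1 in naive, all at or under the 3-count limit, so no fold is given. In the Th17 library Lif thus stood at 167 FPKM beside 0.0405 for Lifr, and Osm at 42.6 FPKM beside 0.0112 for Osmr. In Treg the pairs were 124 beside 0.0571 and 36.7 beside 0.0136 FPKM.

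Comparisons with naive touch a library that differs in cell make-up. Il6ra, Il27ra and Lifr were called lower in Th0 than in naive, and the summed macrophage, neutrophil, dendritic and B cell markers given above were lower in Th0 too. Their part in these differences was not tested. CD8 T and NK cell markers summed to 49.2 CPM in Th17, 84.7 in Treg, 108 in Th0 and 111 in naive, and erythroid and platelet markers to 9.58, 8.75, 7.08 and 169 CPM. In bulk RNA, fewer cells of a type and less RNA per cell cannot be told apart. The comparisons among the 3 cultures do not use counts of that library, though the TMM factors were computed with it included. In the cultures the macrophage markers summed to at most 30.1 CPM, the neutrophil markers to at most 10.7, the dendritic cell markers to at most 27.9 and the stroma and endothelium markers to at most 21.0. Stroma and endothelium markers summed to 18.7 CPM in Th17, 21.0 in Treg, 1.71 in Th0 and 18.2 in naive, with 1 gene, Pdpn, making up 15.9 CPM in Th17 and 19.5 in Treg. The other 7 markers together came to 2.76 CPM in Th17 and 1.53 in Treg. Of these 8 markers, 5 had counts in Th17, 6 in Treg, 4 in Th0 and 8 in naive, with Tek at 0 in the 3 cultures. B cell markers differed among the cultures: 8 of 8 were called lower in Treg than in Th0, 3 were lower and 1 higher in Th17 than in Th0, and 6 were higher in Th17 than in Treg. Others differed as well. In Th17 over Th0, 3 of 4 tested macrophage, 3 of 3 neutrophil and 2 of 3 dendritic cell markers were higher and 0 lower. In Treg over Th0 these were 4 of 8, 1 of 2 and 2 of 3, with 0 lower. CD8 T and NK cell markers had 2 of 5 lower in the first comparison and 1 of 5 higher in the second. Of all genes, 20.4% were higher and 12.2% lower in Th17 over Th0, and 20.2% and 11.9% in Treg over Th0. For Th17 over Treg 1.94% were higher. The part of these other cell types in the Lif, Osm and Il6ra differences was not tested.

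Counted over the family, Lif, Osm and Il6ra were called higher in Th17 than in Th0, none of the 9 was called lower, Il6st, Il27ra and Ebi3 were not called, and Il6, Lifr and Osmr had too few counts to enter. Of all 13324 genes tested in this comparison, 32.6% were called in either direction and 20.4% higher. In Treg over Th0 the same 3 genes were called higher and none lower, with Il6, Il6st, Il27ra and Ebi3 not called and Lifr and Osmr not entering. There 32.1% of genes were called and 20.2% higher. With so few genes these shares cannot be set apart from the background, and the comparisons share the Th0 library. In Th17 over Treg none of the 9 was called and 7 entered, against 3.15% of all genes called, 1.94% higher and 1.21% lower.

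Against naive, Il6ra, Il27ra and Lifr were lower and none was higher in Th0, where 45.7% of genes were called and 27.2% were lower. In Th17, Lif and Osm were higher and Il27ra and Lifr lower than in naive, and the same 4 genes were called in Treg. Of all genes, 33.1% were called for Th17 over naive (15.6% higher and 17.4% lower) and 31.7% for Treg over naive (14.9% higher and 16.8% lower). Scaling to library totals moved the median log2 ratio of all genes by 0.27 for Th17 over Th0, 0.31 for Treg over Th0 and -0.25 for Th0 over naive. The share of higher calls among all calls then came to 79.3% in place of 62.6% for Th17 over Th0, 81.8% in place of 62.9% for Treg over Th0 and 29.6% in place of 40.5% for Th0 over naive. The calls of Lif, Osm, Il6ra, Il27ra and Lifr held under all 4 scalings.

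**Figure D3:**
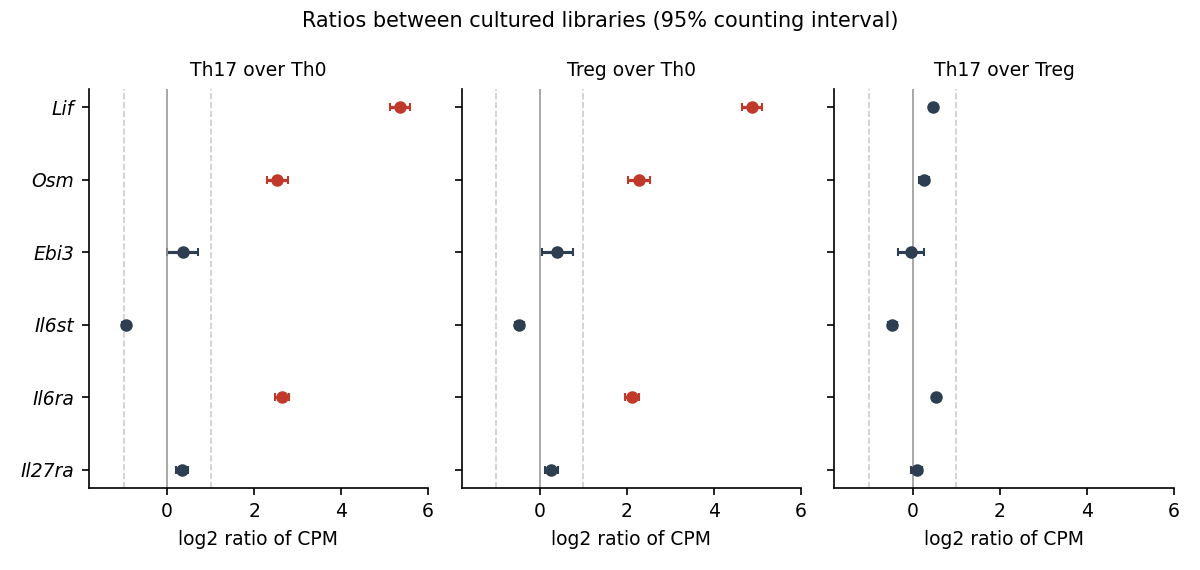
Log2 ratio of CPM, with 95% counting intervals, for the 6 members that entered all 3 comparisons among the cultured libraries with both counts above the limit; red points were called, dark points were not called, and dashed lines mark 2-fold. Lif, Osm and Il6ra are to the right of 2-fold over Th0, and no member is called between Th17 and Treg.

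**Figure D4:**
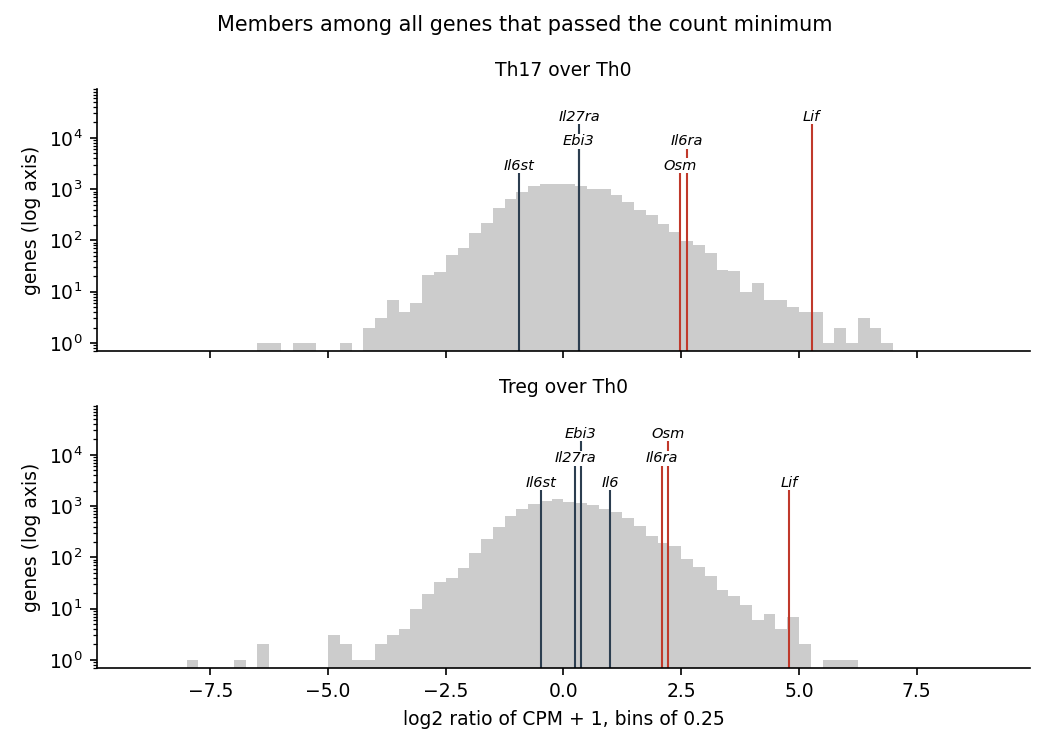
Number of genes (log axis) by log2 ratio after adding 1 CPM, in bins of 0.25, for Th17 over Th0 and Treg over Th0, with members that passed the count minimum as vertical lines, red where called. Lif lies in the far right tail at 5.27 and 4.79, while Ebi3 and Il27ra lie near the middle.

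Other ligands and receptors of the family and of the related IL-12 group were mostly low. Of 17 genes listed, 6 entered Th17 over Th0, of which Il12rb1, Il12rb2 and Il23r were higher, Il11ra1 and Il12a were lower and Clcf1 was not called. The median log2 ratio of those 6 was 0.54, against 0.10 over all genes tested, of which 20.4% were called higher and 12.2% lower. Il12rb2, which encodes the IL-12 receptor beta 2 chain, had 470 CPM in Th17, 326 in Treg, 175 in Th0 and 16.2 in naive. Th17 was 2.68-fold above Th0 and Th0 10.8-fold above naive. Il11ra1, the IL-11 receptor alpha chain and another partner of gp130, had 12.6 CPM in Th17, 9.29 in Treg, 37.0 in Th0 and 12.6 in naive, so here Th0 was the high library. Th17 was below Th0 by 2.93-fold and Treg was below Th0 by 3.98-fold. Il23r, the IL-23 receptor gene that supports established Th17 cells, rested on 19, 8, 1 and 7 counts in Th17, Treg, Th0 and naive. Its ratio of Th17 to Th0 was 12.7 with an interval of 2.03 to 530. Il12a was called lower in Th17 and Treg under 3 of 4 scalings. In Treg over Th0, 0 of 6 were higher and 2 lower (median 0.24 against 0.08), and in Th17 over Treg 0 of 7 were called. Over all genes, 20.2% were higher and 11.9% lower in Treg over Th0, and 3.15% were called in Th17 over Treg. Il31ra, the IL-31 receptor gene, had 0, 3, 0 and 48 counts in Th17, Treg, Th0 and naive.

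Of 10 kinases, STAT factors and adaptors that carry the signal, 9 entered Th17 over Th0, with Gab2 higher, Jak1 and Grb2 lower and 6 not called (median 0.28 against 0.10 over all genes). Of all genes, 20.4% were called higher and 12.2% lower there. Jak1, the kinase that gp130 relies on, had 427 CPM in Th17, 445 in Treg, 965 in Th0 and 956 in naive. Relative to Th0 this was 2.26-fold lower in Th17, and in Treg 2.17-fold lower. The calls of Jak1 and of the adaptor Grb2 (92.9, 92.9, 199.9 and 241 CPM) were lost with library totals. Gab2, a docking adaptor below gp130, had 87.5 CPM in Th17, 69.9 in Treg, 17.5 in Th0 and 30.5 in naive. It was 5.01-fold above Th0 in Th17 and was called higher in Treg as well. Stat3 itself had 559 CPM in Th17, 588 in Treg, 476 in Th0 and 307 in naive. It was called in none of the comparisons, except that Treg over naive, at 1.92-fold, was called higher with library totals. In Treg over Th0, Gab2 and the phosphatase gene Ptpn11 were higher and Jak1 and Grb2 lower of 9 (median 0.31 against 0.08), Ptpn11 under 3 of 4 scalings. In Th17 over Treg 0 of 9 were called. The shares over all genes were 20.2% higher and 11.9% lower in Treg over Th0, and 3.15% called in Th17 over Treg. In Th0 over naive Gab1, Ptpn11 and Tyk2 were lower of 10 (median -0.55 against -0.13), where 27.2% of all genes were lower. Tyk2, a kinase of this pathway, had 56.9 CPM in Th0 and 155 in naive, and Gab1 had 0 and 45 counts.

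Of 10 genes that dampen the signal or shed the receptors, Socs1 and Socs3 were higher in Th17 than in Th0, none was lower and 8 were not called (median 0.08 against 0.10 over all genes). Over all genes, 20.4% were higher and 12.2% lower in that comparison. Socs3, whose product binds gp130 and blocks its kinases, had 383 CPM in Th17, 269 in Treg, 172 in Th0 and 154 in naive, which made it 2.22-fold higher in Th17 than in Th0 (2.10 to 2.35). In Treg it was 1.56-fold above Th0, short of the 2-fold rule. Socs1, a suppressor of JAK kinases, had 173, 140, 26.3 and 25.1 CPM in Th17, Treg, Th0 and naive, 6.59-fold and 5.32-fold above Th0. It was the 1 gene of this list called in Treg over Th0 (median -0.04 against 0.08), and 0 of 10 were called in Th17 over Treg. Over all genes, 32.1% were called in Treg over Th0, and 20.2% of all genes were called higher there. In Th17 over Treg 3.15% of all genes were called. The IL-6 receptor sheddases Adam10 and Adam17 were not called among the cultures. In Th0 over naive, the phosphatase gene Ptpn2 (2.68-fold) and Pias3 (2.13-fold, under 3 of 4 scalings) were higher. These were 2 of 10, where 18.5% of all genes were higher.

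Genes that STAT3 is known to activate in Th17 cells were higher in the Th17 library than in Th0 in 11 of 15 cases and lower in 0 (median 1.78 against 0.10 over all genes), where 20.4% of all genes were called higher and 12.2% lower. In Treg over Th0, 8 of 14 were higher and 0 lower (median 1.24 against 0.08), with 20.2% of all genes higher and 11.9% lower. The list includes the Th17 genes by which the label was checked above, so its direction in Th17 is not independent of the label. Irf4, a factor that Th17 differentiation requires, had 999.9 CPM in Th17, 685 in Treg, 83.4 in Th0 and 92.5 in naive. Il17f had 119, 40.0, 0.457 and 0.244 CPM in that order.

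Part of this list differed between Th17 and Treg, where none of the 9 family members was called. Of 15 genes, 5 were higher in Th17, among them Il17a, Il17f, Il21 and Batf, and 0 were lower (median 0.52 against 0.01). Of all genes, 1.94% were higher and 1.21% lower. Il21, a cytokine induced by IL-6, had 106 CPM in Th17, 32.0 in Treg, 18.2 in Th0 and 2.52 in naive. Il17a was 6.18-fold higher in Th17 than in Treg. In Th0 over naive, 4 of 12 were higher, among them Hif1a (1830 and 174 CPM) and Il21, and 1 was lower (median 0.51 against -0.13). Over all genes, 18.5% were higher and 27.2% lower there.

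**Figure D5:**
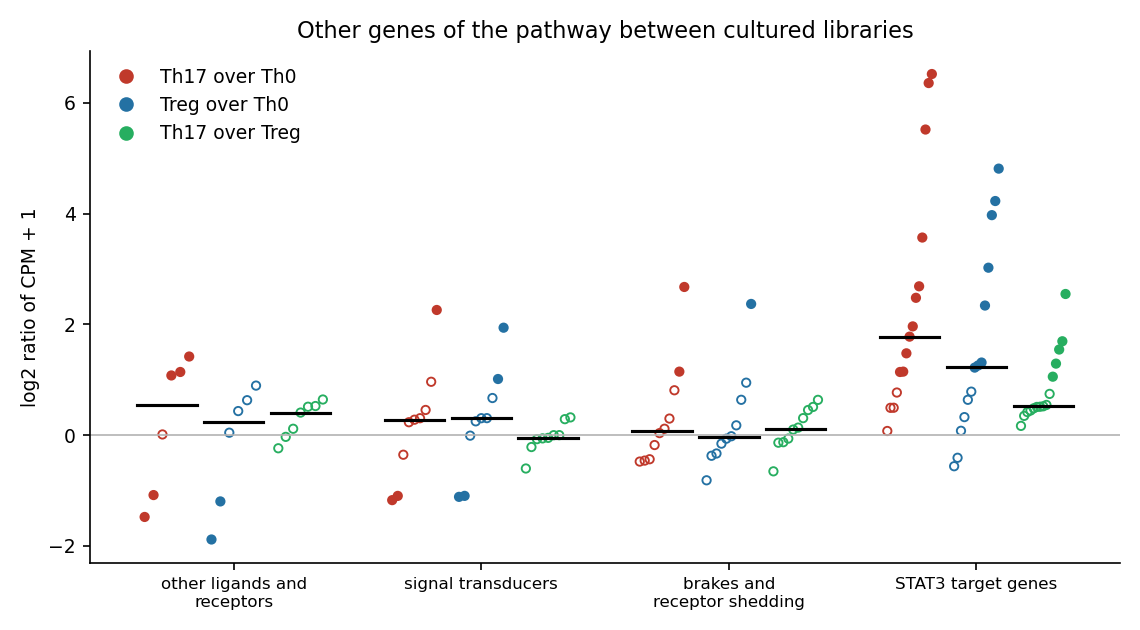
Log2 ratio after adding 1 CPM of the genes of 4 pathway lists that entered each comparison among the cultured libraries; filled points were called, open points were not called, and bars are list medians. The STAT3 targets reach the highest ratios over Th0, and no gene of the other 3 lists is called between Th17 and Treg.

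The genes whose levels ran most like each member over the 4 libraries were found by the distance between log2 profiles centred on their own mean, for the 7 members with at least 10 CPM in a library. With only 4 libraries, many genes share a profile by this measure. Lif had no close match: the nearest were Egln3, Il17f and Ppp1r14c, at distances of 0.91, 0.91 and 1.02. Among the nearest to Osm were Ntrk3 (0.03) and Eno1 (0.20). For Il6ra they were Pus3, Trp53rka and Grwd1 (0.07 to 0.18). For Il6st they were Commd8, Usp18 and Sept1, which the table lists under a date-like symbol (0.08 to 0.09). For Il27ra the nearest were Ksr2, Fgd6 and Irak4, for Lifr Ube2l6, Fpr2 and Slc46a3, and for Ebi3 Fam58b, Ddost and Dnal4.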

How the data were processed

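The deposited table holds, per the file headers, whole-number read counts and FPKM values by the authors for 4 libraries. Per the submitters' processing notes Bowtie2, RSEM and the builds GRCm38.p6 and mm10 were named, without roles; versions, annotation and strandedness are not given in these sources. Libraries were made from TRIzol-extracted total RNA and run on an Illumina HiSeq, per the labels' protocols. Dividing the deposited counts by the FPKM gave 1 length per gene across the 4 libraries (tolerance 0.1%), checked in 8988 genes that reached 50 counts in each.

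Groups came from the labelled cell type, with 1 library each. Counts were scaled with TMM factors (edgeR 4.0.16, R 4.3.3) of 1.05 for Th17, 1.08 for Treg, 0.852 for Th0 and 1.03 for naive. Over 6 comparisons, genes with at least 10 counts in 1 library were called at 2-fold (1 CPM added) when the 95% exact conditional (Clopper-Pearson) interval excluded equality. Levels have exact Poisson intervals. No molecular identifiers are stated, so intervals cover counting error only. The calling rule was run on simulated counts with counting error only. They hold no variation between libraries, so the run cannot show how the calls would fare with replicates. Folds omit the added CPM, and a 0 was set to 3 counts.

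The 9 members and all lists were chosen with earlier results of these data known. Pathway genes were named by size among called genes (up to 4 per list between cultures and 2 in Th0 over naive). Stat3, Clcf1, Adam10, Adam17, Il27, Il12rb1, Batf, Tbx21 and the antisense genes were named after their values were seen. A few further genes chosen by size or likeness are not reported here. Alternatives were scaling, added CPM, count minimum, FPKM, and 2 chosen after seeing the data. No member had a near-identical copy (minimap2 2.31, 300 nt at 95%). Sequences are RefSeq's on GRCm38.p6, and loci are the table's. The intervals and plots used scipy 1.17.1, pandas 2.3.3, numpy 2.4.6 and matplotlib 3.10.9 under Python 3.11.15.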

Additional observations from a re-analysis of the deposited data

How the results depend on the processing

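No paired analysis was possible because each group has 1 library, and for the same reason no replicate could be left out. Of 272 values for the members' log2 ratios under the alternatives, 267 kept their call or lack of one and 5 did not. No called ratio changed sign, while the uncalled ratio of Il6st in Th0 over naive, at 0.00, did so 3 times, at -0.27 with library totals, -0.04 with upper quartile scaling and -0.25 on FPKM. The 5 were Il6 in Treg over Th0, Il6st in Th17 over Th0 and Lifr in Th17 and Treg over naive, given above with their settings. The count of members called moved by no more than 1.5 times under any alternative. Counts over all genes moved further. With 4 CPM added in place of 1, 2864 genes were called in Th17 over Th0 in place of 4342, 2678 in Treg over Th0 in place of 4223, 185 in Th17 over Treg in place of 421, 3187 in Th17 over naive in place of 4806 and 3026 in Treg over naive in place of 4555. With 0.25 CPM added, 754 were called in Th17 over Treg. On FPKM, 2866 were called in Th17 over Th0, 2760 in Treg over Th0 and 200 in Th17 over Treg, with 76.2% of the calls higher in Th17 over Th0 and 78.4% in Treg over Th0. A larger addition shrinks the ratios of low genes by construction. TMM factors from the 3 cultured libraries alone, an alternative chosen after seeing the data, changed no member's call. The longest GENCODE transcripts in place of the lengths behind the FPKM, also chosen after seeing the data, gave a ratio of Il27ra to Il6st in Th0 of 0.947 in place of 2.11. Depth limits Il6, Lifr and Osmr, where 3 counts stood for up to 0.343 CPM.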

Other observations

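Per length, Lif outranked the signature cytokines of the Th17 library. In Th17 it stood at 167 FPKM, beside 81.6 for Il17a, 41.9 for Il17f and 19.4 for Il21, and in Treg at 124 FPKM, beside 13.6, 14.5 and 6.03. In Th0 Lif had 3.33 FPKM, with Il17a listed at 0 counts and Il21 at 2.69 FPKM. These genes were set side by side after their values were seen.

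The receptor chain of IL-12, Il12rb2, was among the higher transcripts of the related group in Th17 at 109 FPKM. Between libraries, Il12rb2 had 470 CPM in Th17, 326 in Treg, 175 in Th0 and 16.2 in naive. Tbx21, the Th1 factor gene, had 6.13 CPM in Th17, 9.02 in Treg, 67.6 in Th0 and 23.4 in naive. The antisense gene Gm42809 within Il6ra had 74 counts in Th17 and 40 in Treg, against 0 in Th0 and 6 in naive.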
